A study of Homo sapiens with 4 samples.

Results

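The genes described here code for SR proteins, heterogeneous nuclear ribonucleoproteins (hnRNPs) and polypyrimidine tract-binding proteins, which were taken as all genes with a symbol starting with SRSF and a digit, HNRNP and a letter, or PTBP and a digit. Of 43 such symbols in the symbol table, 39 had transcripts with values, out of 15221 genes in all, namely 12 SRSF, 24 HNRNP and 3 PTBP genes. They held 149 of 31077 transcripts and between 0.932% and 0.991% of the counts of a library. RNA-seq values of 4 libraries were used, 2 of PANC-1, an untransduced line of pancreatic adenocarcinoma, and 2 of PZT-2, a clone of PANC-1 with knockdown of H2A.Z.1 and of both isoforms of H2A.Z.2. PZT-2 carries lentiviral shRNAs and was selected with puromycin, both lines were at the same passages in the same medium, and no transduced control was analysed here. The paper also sequenced PANC-1 cells with a scrambled shRNA. It describes the genes that differ between them and PZT-2 as similar to those found against PANC-1. PZT-2 is 1 clone, so that in the 4 libraries used here knockdown, transduction, selection and cloning cannot be told apart. The study calls the libraries of a line biological replicates, and the labels do not say whether these were separate cultures. The p-values measure the spread between these libraries of 1 clone and its parent line.

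SR proteins bind exonic enhancers through RNA recognition motifs and recruit the spliceosome through domains rich in arginine and serine. Proteins of the hnRNP and PTBP families coat nascent RNA, and many of them act as silencers of exons, so that the balance of both groups sets which exons are kept. Many of these genes limit their own mRNA by splicing it into a form with a premature stop codon, which nonsense-mediated decay removes, and RefSeq lists many such forms as noncoding (NR) transcripts beside the coding (NM) ones. Of the 149 transcripts, 135 were NM and 14 were NR.

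The end of the reading frame is shown for the NR transcripts of 6 genes that GENCODE 29 annotates as targets of nonsense-mediated decay, because the share of these forms is compared between the cell lines further on. Each line gives the 30 bases that end with the stop codon, which is in capitals, as read from the matched GENCODE transcript on GRCh38.
SRSF3: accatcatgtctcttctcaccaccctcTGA
SRSF6: gccatgacgacagcagccttttgccatTAG
SRSF1: tttgaccagaattggatacagtggtctTAA
SRSF2: cctgaagaggaaggagcggtgtcctctTAA
HNRNPA1: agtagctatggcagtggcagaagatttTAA
HNRNPDL: aatcaccaaaacaattaccagccatacTAA

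In SRSF3 (chr6:36599825-36599854, plus strand) the stop lay in exon 4 of 7, an exon of 456 bases (chr6:36599821-36600276) that the matched coding transcript lacks. In SRSF6 (chr20:43459275-43459304, plus strand) it lay in exon 3 of 7, an exon of 268 bases (chr20:43459153-43459420) also missing from the coding transcript. The reading frames were cut to 124 residues in SRSF3 and 135 residues in SRSF6, against 164 and 344 in the coding transcripts. In the table of values the NR transcript was longer than the NM transcript by 456 bases in SRSF3 and by 268 bases in SRSF6, the lengths of these exons. In the other 4 genes the frame coded for 201 residues in SRSF1, 221 in SRSF2, 320 in HNRNPA1 and 420 in HNRNPDL. It ended at a stop that at least 1 matched coding transcript of the gene also uses, with at least 1 exon junction after it. In SRSF1 only 1 of 2 matched coding transcripts uses this stop. The coding transcript of SRSF1 for 248 residues took 81% to 90.7% of the gene's counts, and against it the frame was shorter. These windows are at chr17:58005747-58005776 (minus strand) for SRSF1, chr17:76736161-76736190 (minus strand) for SRSF2, chr12:54284284-54284313 (plus strand) for HNRNPA1 and chr4:82426059-82426088 (minus strand) for HNRNPDL. The last junction was 824 bases after the stop in SRSF1, 209 in SRSF2, 75 in HNRNPA1 and 127 in HNRNPDL.

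The recovered counts of the libraries ranged from 12861331 to 15717459. H2AFZ, which codes for H2A.Z.1, was lower in PZT-2 (log2 fold change -1.47 ± 0.06 SE, adjusted p = 6.13e-05 by edgeR's quasi-likelihood test), as was H2AFV, which codes for H2A.Z.2 (-0.36 ± 0.06, adjusted p = 0.00563). Of the 6 epithelial and ductal markers, the keratins KRT8 (1344 to 3128 TPM), KRT18 (1141 to 2041 TPM) and KRT19 (1241 to 2139 TPM) were high. KRT7 (7.94 to 11 TPM) and EPCAM (6.37 to 8.24 TPM) were low. CDH1 was 3.03 and 3.9 TPM in PANC-1 and 0 and 0.497 TPM in PZT-2. For other cell types, 2 of 3 leukocyte, 2 of 3 endothelial and 3 of 4 fibroblast markers and both acinar markers had no row in the table. Of the others, CD68, a lysosomal protein used as a macrophage marker, was between 114 and 122 TPM in all libraries, the endothelial marker PECAM1 was at 0.236 TPM or less, and the fibroblast marker COL1A1 was 10.5 and 11.4 TPM in PANC-1 and 3.61 and 2.86 TPM in PZT-2. The summed level of the 6 epithelial markers was 7248 and 7224 TPM in PANC-1 and 3817 and 3745 TPM in PZT-2. Nearly all of this sum came from KRT8, KRT18 and KRT19. That of the mesenchymal markers VIM and CDH2 was 6424 and 6368 TPM in PANC-1 and 4594 and 4481 TPM in PZT-2. Both sums and COL1A1 moved with the groups, and their part in the results below was not tested. A lower value per library can come from less RNA per cell or from fewer cells that express a gene, which cannot be told apart in bulk RNA.

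**Figure D1:**
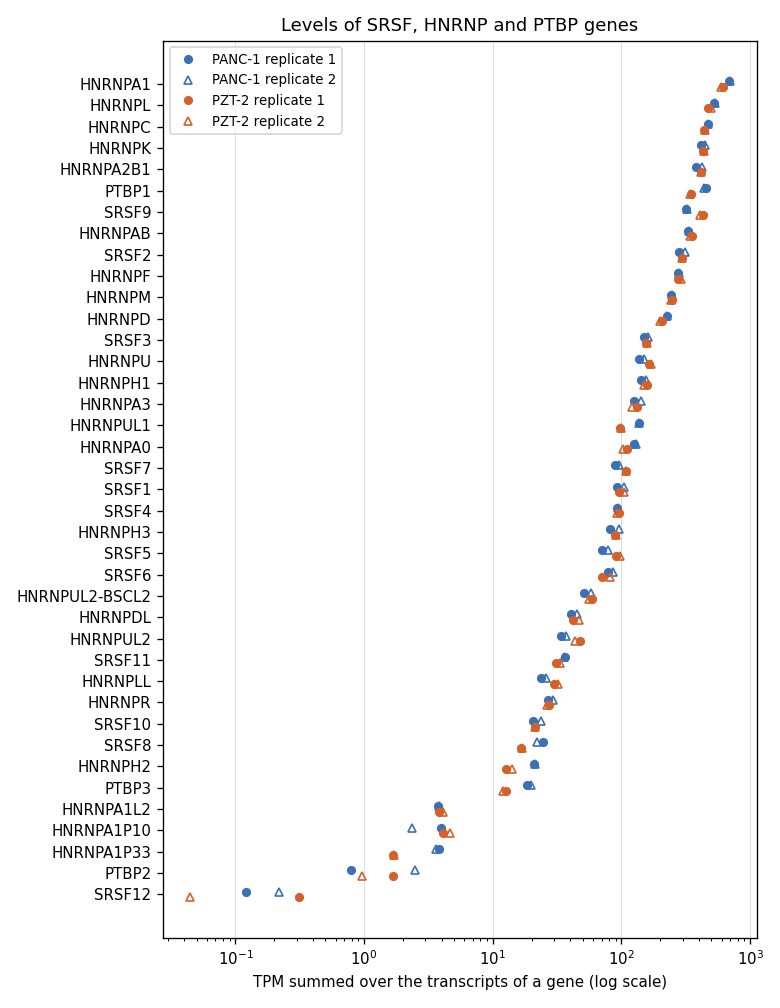
TPM of the 39 genes in each library on a log axis, summed over the transcripts of a gene and ordered by the mean of all 4 libraries (circles for replicate 1, open triangles for replicate 2, blue for PANC-1, orange for PZT-2). HNRNPA1 stands at the top with 598 to 695 TPM and SRSF12 at the bottom with 0.0444 to 0.31 TPM.

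Levels were compared between genes in TPM, which is per length and was used as deposited. Of the 39 genes, 17 were above 100 TPM in every library, 17 were between 10 TPM and levels that reach 100 TPM in some or no library, and 5 were under 5 TPM in every library. HNRNPA1, which shuttles between nucleus and cytoplasm and silences exons, was highest with 688 and 695 TPM in PANC-1 and 613 and 598 TPM in PZT-2. HNRNPL, a reader of CA repeats, followed with 524 and 532 TPM in PANC-1 and 474 and 498 TPM in PZT-2, and HNRNPC, which binds uridine tracts, with 474 and 469 TPM in PANC-1 and 440 and 443 TPM in PZT-2. HNRNPA1 stood apart from HNRNPL in all 4 libraries, while the lowest value of HNRNPL and the highest of HNRNPC were both 474 TPM. HNRNPK, HNRNPA2B1 and PTBP1 came next, and their ranges overlapped with that of the next gene in the order. SRSF9 was the highest SR gene in the mean of all libraries with 318 and 323 TPM in PANC-1 and 431 and 407 TPM in PZT-2, ahead of SRSF2 with 282 and 313 TPM in PANC-1 and 294 and 295 TPM in PZT-2. Of the 38 pairs that follow each other in this order, 11 did not overlap over the 4 libraries.

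The 5 genes at the bottom were HNRNPA1L2, HNRNPA1P10, HNRNPA1P33, PTBP2 and SRSF12. The first 3 are copies of HNRNPA1 with nearly the same sequence, and how kallisto splits reads between them and HNRNPA1 makes their counts uncertain. PTBP2, the neuronal relative of PTBP1, had 21.4 and 66.9 normalized counts in PANC-1 and 45.3 and 26.7 in PZT-2. SRSF12 had 3.38 and 6.33 normalized counts in PANC-1 and 9.06 and 0.989 in PZT-2. In PTBP2, SRSF12 and HNRNPA1L2 the libraries of the lines overlapped. In HNRNPA1P10 and HNRNPA1P33 they did not, and neither gene passed edgeR's test. HNRNPA1P33 had the lowest fitted value of all 39 genes (log2 -1.25 ± 0.49 SE, adjusted p = 0.105) on 12.4 and 11.7 normalized counts in PANC-1 and 5.03 and 4.94 in PZT-2, while HNRNPA1P10 had the highest (log2 0.51 ± 0.33, adjusted p = 0.306) on 38.3 and 22.6 in PANC-1 and 40.3 and 45.5 in PZT-2. With limma-trend on TPM values HNRNPA1P33 was called lower (adjusted p = 0.00942 on log2(TPM + 1) and 0.012 on log2(TPM + 0.1)).

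PZT-2 was then compared with PANC-1 on gene sums of counts. All 39 genes passed the filter of at least 5 counts in at least 2 libraries, 6 were higher and 7 were lower in PZT-2 at an adjusted p below 0.05. The share called was 33.3%, against 28.4% of all 15101 genes tested, and by direction 14.7% of all genes were higher and 13.7% were lower. The median log2 fold change was 0.01 over the 39 genes and 0.00 over all genes tested. By family, 3 SRSF genes rose and 1 fell of 12, 3 HNRNP genes rose and 4 fell of 24, and 2 PTBP genes fell of 3. The libraries of both lines did not overlap for 23 of the 39 genes, against 66.3% of all genes tested. Between the highest and the lowest called gene the fitted log2 values ran from 0.40 to -0.65, so that no called gene of these families changed by as much as H2AFZ.

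**Figure D2:**
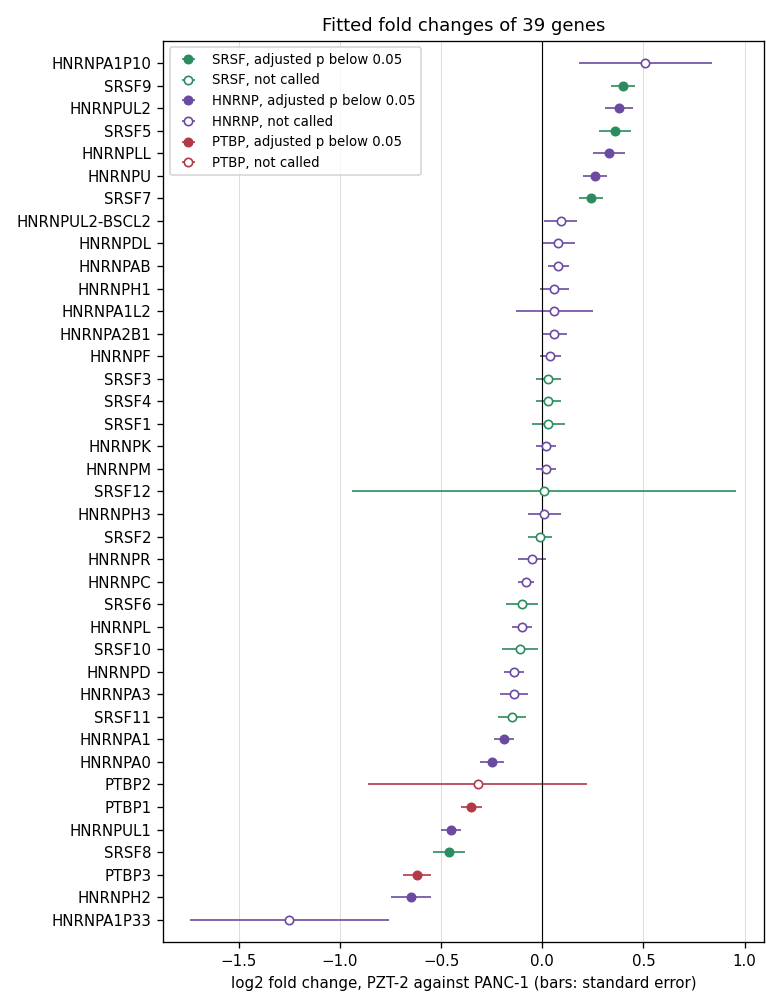
Fitted log2 fold change of PZT-2 against PANC-1 for all 39 genes, with standard errors as bars, green for SRSF, purple for HNRNP and red for PTBP genes, filled where the adjusted p was below 0.05. The 13 called genes lie between -0.65 and 0.40, and the widest bars belong to SRSF12, PTBP2, HNRNPA1P33 and HNRNPA1P10, which have few counts.

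SRSF9, a short SR protein with 2 RNA recognition motifs, rose most among the SR genes. It had 2714 and 2730 normalized counts in PANC-1 and 3685 and 3485 in PZT-2. The lines were far apart compared with the spread within each of them (log2 0.40 ± 0.06 SE, adjusted p = 0.00382).

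SRSF5, an SR protein known from studies of growth and splicing after insulin, had 811 and 890 normalized counts in PANC-1 and 1052 and 1132 in PZT-2. Both PZT-2 libraries were above both PANC-1 libraries, and the increase passed the test (log2 0.36 ± 0.08, adjusted p = 0.0167). SRSF7, an SR protein with a zinc knuckle that also acts in mRNA export, had 1686 and 1803 normalized counts in PANC-1 and 2060 and 2065 in PZT-2 (log2 0.24 ± 0.06, adjusted p = 0.0291).

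SRSF8, an SR gene made by retrotransposition of SRSF2, was the SR gene that fell. It had 828 and 741 normalized counts in PANC-1 and 564 and 575 in PZT-2 (log2 -0.46 ± 0.08, adjusted p = 0.00857). SRSF2 itself, the parent copy, had 4724 and 5198 normalized counts in PANC-1 and 4922 and 4945 in PZT-2, which overlapped (log2 -0.01 ± 0.06, adjusted p = 0.939).

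Among the HNRNP genes, HNRNPH2, a reader of G tracts coded on chromosome X, was lowest in PZT-2 of those called. It had 381 and 381 normalized counts in PANC-1 and 231 and 257 in PZT-2 (log2 -0.65 ± 0.10, adjusted p = 0.00509). HNRNPH1, its close relative on chromosome 5, had 2320 and 2557 normalized counts in PANC-1 and 2604 and 2483 in PZT-2, with overlap between the lines (log2 0.06 ± 0.07, adjusted p = 0.564).

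The scaffold group of HNRNPU-like proteins moved in both directions. HNRNPU, which binds chromatin and RNA and is also known as scaffold attachment factor A, had 7335 and 8000 normalized counts in PANC-1 and 9001 and 9363 in PZT-2 and rose (log2 0.26 ± 0.06, adjusted p = 0.0194). HNRNPUL1, its relative with a role in the DNA damage response, had 4266 and 4203 in PANC-1 and 3056 and 3148 in PZT-2 and fell (log2 -0.45 ± 0.05, adjusted p = 0.00192).

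HNRNPUL2, the other relative, had 1378 and 1489 normalized counts in PANC-1 and 1951 and 1777 in PZT-2 and rose (log2 0.38 ± 0.07, adjusted p = 0.012). Its exons are also part of the readthrough transcript HNRNPUL2-BSCL2, which had 1598 and 1804 in PANC-1 and 1845 and 1780 in PZT-2 (log2 0.09 ± 0.08, adjusted p = 0.423). Reads of shared exons are split between both by the abundance estimate. The sum of both was 2976 and 3293 in PANC-1 and 3796 and 3557 in PZT-2, a difference of 0.23 in log2 of the means that was not tested.

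HNRNPA1 fell slightly from 9005 and 8989 normalized counts in PANC-1 to 7960 and 7778 in PZT-2 (log2 -0.19 ± 0.05, adjusted p = 0.0223). HNRNPA0, which binds AU-rich elements of stress-response mRNAs, fell from 2850 and 2970 to 2542 and 2361 (log2 -0.25 ± 0.06, adjusted p = 0.0282). In both genes the 2 libraries of a line were closer to each other than to those of the other line. HNRNPA2B1, which is close to HNRNPA1 in sequence, had 10926 and 12051 normalized counts in PANC-1 and 11921 and 12017 in PZT-2 (log2 0.06 ± 0.06, adjusted p = 0.499).

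HNRNPLL, a relative of HNRNPL known for CD45 splicing in T cells, had 554 and 603 normalized counts in PANC-1 and 700 and 758 in PZT-2 and rose (log2 0.33 ± 0.08, adjusted p = 0.0279). This call did not hold with DESeq2 (adjusted p = 0.0716) or with limma-trend on log2(TPM + 1) (adjusted p = 0.0511). HNRNPL had 7694 and 7822 in PANC-1 and 7045 and 7392 in PZT-2, which did not overlap but did not pass the test (log2 -0.10 ± 0.05, adjusted p = 0.17).

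PTBP1, the polypyrimidine tract-binding protein of most non-neuronal cells, fell from 11629 and 11218 normalized counts in PANC-1 to 8991 and 8886 in PZT-2 (log2 -0.35 ± 0.05, adjusted p = 0.00275). PTBP3, known from blood cells and also called ROD1, fell from 1163 and 1254 to 801 and 769 (log2 -0.62 ± 0.07, adjusted p = 0.00179). In both genes each PZT-2 library was below each PANC-1 library by more than the libraries of a line differed. Over the 3 PTBP genes the summed level was 471 and 460 TPM in PANC-1 and 361 and 355 TPM in PZT-2, most of it from PTBP1. PTBP2 did not pass the test (log2 -0.32 ± 0.54, adjusted p = 0.704).

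**Figure D3:**
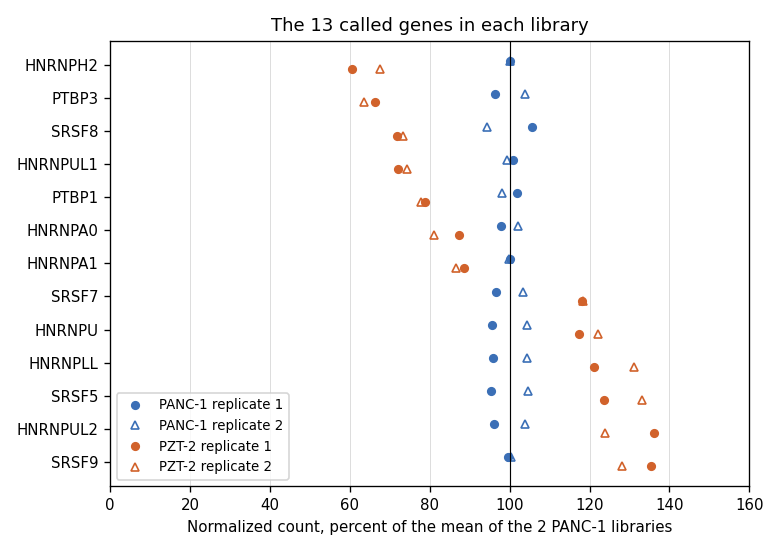
Normalized counts of the 13 called genes in each library, as a percent of the mean of the 2 PANC-1 libraries of the same gene (line at 100), ordered from the lowest to the highest fold change, with symbols as for the levels. The PZT-2 libraries (orange) lie to the left of the PANC-1 libraries (blue) in 7 genes and to the right in 6 genes, with no overlap. The genes were chosen by the test of this same difference, and 66.3% of all genes tested did not overlap.

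With single libraries left out, the calls of SRSF9, SRSF8, HNRNPH2, HNRNPUL1, PTBP1 and PTBP3 held in all 4 fits. The call of SRSF5 was lost without PZT-2 replicate 2 (log2 0.31, edgeR adjusted p = 0.113) and that of HNRNPUL2 without PZT-2 replicate 1 (log2 0.31, adjusted p = 0.0822). Leaving out the first or second PZT-2 library gave an adjusted p of 0.143 or 0.158 for SRSF7, 0.0716 or 0.137 for HNRNPU, 0.118 or 0.183 for HNRNPA1 and 0.0721 or 0.209 for HNRNPA0. HNRNPLL was not called without PANC-1 replicate 1 (adjusted p = 0.0633), nor when either of the PZT-2 libraries was left out (0.0579 for replicate 1 and 0.158 for replicate 2). HNRNPA0 also missed the threshold with the replicate number as a block (adjusted p = 0.0511).

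The remaining 26 genes were not called. Of these, 21 had at least 500 counts in every library, with fitted log2 values between -0.15 and 0.09 and standard errors between 0.04 and 0.09. They include SRSF1, SRSF2, SRSF3 and SRSF4, HNRNPC, HNRNPK and HNRNPM, so that for these abundant regulators a change of gene sums was not detected at this number of libraries. The smallest adjusted p among the 26 genes was 0.105. SRSF1, the SR protein studied longest and a known oncoprotein, had 3989 and 4523 normalized counts in PANC-1 and 4161 and 4541 in PZT-2 (log2 0.03 ± 0.08, adjusted p = 0.81). HNRNPK, a KH-domain protein that binds C-rich sequences, had 9594 and 10183 in PANC-1 and 9914 and 10161 in PZT-2 (log2 0.02 ± 0.05, adjusted p = 0.797).

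The values of genes within 5 Mb of each called gene were set beside it. SRSF7 and HNRNPLL lie close together on chromosome 2, and 15 of 36 tested genes around SRSF7 and 16 of 37 around HNRNPLL were called higher and 0 lower, with a median log2 fold change of 0.33 around both. The values of SRSF7 (0.24) and HNRNPLL (0.33) were thus at or under the median of their surroundings. Around HNRNPH2 on chromosome X, 15 of 38 genes were called lower and 3 higher, with a median of -0.43. Around the other 10 called genes this median ran from -0.11 to 0.07. The part of neighbouring genes in these 3 changes was not tested.

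The NR transcripts were compared with the NM transcripts of the same gene, which compares the forms that RefSeq lists as noncoding with those it lists as coding. In 10 of these genes both classes passed the filter. The other NR transcripts were the lone transcripts of HNRNPA1P10, HNRNPA1P33 and HNRNPUL2-BSCL2, and that of PTBP2, which held all counts of its gene in 3 of 4 libraries. Over the 10 genes and 4 libraries the NR share of the counts had a median of 9.66%. SRSF6, an SR protein known from wound healing and skin cancer, had an NR share of 21.2% and 21.5% in PANC-1 and 30.3% and 28.7% in PZT-2. SRSF3, the smallest SR protein and one that regulates its own splicing through the exon shown above, had 8.23% and 6.08% in PANC-1 and 11.6% and 9.99% in PZT-2. In both genes the PZT-2 libraries were above the PANC-1 libraries.

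HNRNPA1 had an NR share of 6.59% and 7.60% in PANC-1 and 9.06% and 9.33% in PZT-2, again without overlap. SRSF8 had 4.10% and 2.90% in PANC-1 and 8.41% and 6.71% in PZT-2, on 21.5 to 47.4 normalized NR counts. Both RefSeq transcripts of SRSF8 match the same coding GENCODE transcript, which has 1 exon, so that no noncoding splice form of SRSF8 is shown by this annotation. SRSF1 had 3.16% and 3.33% in PANC-1 and 4.30% and 3.61% in PZT-2. In these 5 genes both PZT-2 libraries were above both PANC-1 libraries, 5 of 10 (4 of 9 without SRSF8) against 21.5% of the 1391 genes with both classes. Counting either direction, 6 of 10 did not overlap, against 36.4% of the 1391 genes.

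SRSF10, a splicing repressor when dephosphorylated, was the gene with the opposite order, with 18.6% and 16.8% in PANC-1 and 15.4% and 16.2% in PZT-2. The lines overlapped in SRSF2 (9.18% and 7.69% against 13.2% and 8.33%), in HNRNPDL (24.6% and 26.5% against 27.9% and 23.8%) and in HNRNPA3 (48.8% and 40.9% against 36.2% and 56.6%). In SRSF11 they also overlapped, with 6.78% and 11.0% in PANC-1 and 7.09% and 1.87% in PZT-2. HNRNPA3 and SRSF11 have several long transcripts that differ little, and their shares differed more within PZT-2 than between the lines.

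**Figure D4:**
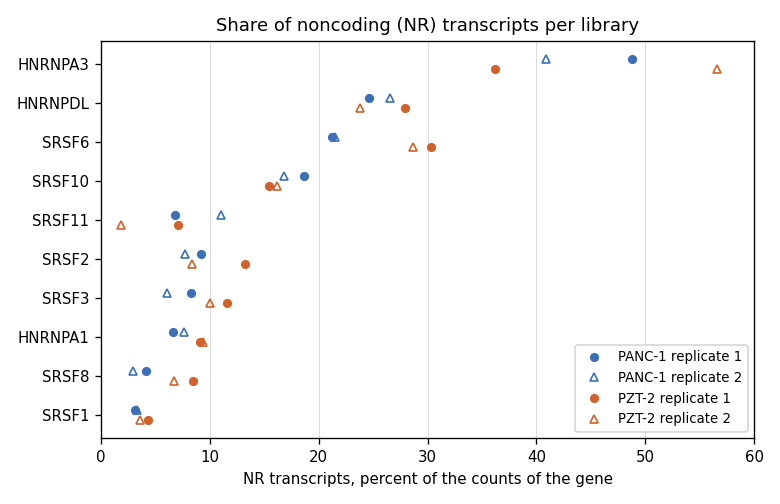
Share of a gene's counts in NR transcripts, in percent, in each library for the 10 genes with both classes, ordered by the PANC-1 mean, with symbols as for the levels. In SRSF6, SRSF3, HNRNPA1, SRSF8 and SRSF1 both orange symbols lie to the right of both blue ones.

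On the log2 ratio of NR to NM counts, limma called 0 of these 10 genes and 0 of 1391 genes (0%), with 93 of the 1391 and 1 of the 10 at an unadjusted p below 0.05. edgeR's diffSpliceDGE called 3 of 1393 genes and none of the 10. SRSF6 had a log2 ratio change of 0.62 ± 0.17 SE (limma adjusted p = 0.607), SRSF3 of 0.66 ± 0.26 (adjusted p = 0.728), HNRNPA1 of 0.41 ± 0.18 (adjusted p = 0.793) and SRSF8 of 1.17 ± 0.56 (adjusted p = 0.793). The median over the 10 genes was 0.32 and over all 1391 genes 0.10. Of the 10 genes 8 were above 0, and the share above 0 over the 1391 genes was not worked out. These 8 include SRSF8, HNRNPDL (0.02 ± 0.22) and HNRNPA3 (0.08 ± 0.47).

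NM and NR sums were also tested separately with edgeR, an approach added after the values were seen. Of 11 NR sums of these families that passed the filter 2 were called, both higher in PZT-2, against 8.09% of 1396 NR sums called in either direction and 5.09% called higher. They belonged to SRSF3 and SRSF6, which have 1 NR transcript each. In edgeR's test of single transcripts the same counts did not pass (adjusted p = 0.176 and 0.18). The NR sum of SRSF3 was 303 and 240 normalized counts in PANC-1 and 442 and 395 in PZT-2 (log2 0.63 ± 0.14, adjusted p = 0.0354), while its NM sum did not pass (log2 -0.03 ± 0.07, adjusted p = 0.799). The NR sum of SRSF6 was 495 and 549 in PANC-1 and 646 and 700 in PZT-2 (log2 0.36 ± 0.09, adjusted p = 0.0438), and its NM sum had a log2 value of -0.25 ± 0.10 (adjusted p = 0.132). With the replicate number as a block the SRSF6 value did not pass (adjusted p = 0.0556). The SRSF3 call was lost without PANC-1 replicate 2 (log2 0.46, adjusted p = 0.0602). It was also lost when PZT-2 replicate 1 (log2 0.55, adjusted p = 0.148) or replicate 2 (0.71, adjusted p = 0.102) was left out. The SRSF6 call was lost without PANC-1 replicate 1 (log2 0.29, adjusted p = 0.0987), and likewise when PZT-2 replicate 1 (0.42, adjusted p = 0.103) or replicate 2 (0.31, adjusted p = 0.194) was left out.

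Of 10 NM sums, 2 were called, both lower, against 23.8% of 1427 NM sums of genes that also have NR transcripts. They belonged to HNRNPA1 (log2 -0.23 ± 0.04, adjusted p = 0.0213, and 0.0568 with the replicate block) and SRSF8 (log2 -0.52 ± 0.08, adjusted p = 0.0141), whose gene sums also fell. Leaving out the first or second library of PZT-2, the adjusted p was 0.114 or 0.16 for HNRNPA1 and 0.078 or 0.0768 for SRSF8. The NR sum of HNRNPA1 was 593 and 683 in PANC-1 and 721 and 725 in PZT-2 and did not pass (log2 0.18 ± 0.09, adjusted p = 0.231).

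Single transcripts were tested as the study did, here with edgeR. Of 149 transcripts of these genes 142 passed the filter and 0 were called, against 0.148% of 30403 transcripts, with 25 of the 142 (17.6%) at an unadjusted p below 0.05 against 18.5% of all transcripts tested. DESeq2 called 24 of them, 12 in each direction, against 14.4% of all transcripts. Where every library had to reach 10 counts, edgeR called 2, against 5.86% of all transcripts then tested. The number of calls for single transcripts thus depended on the tool and the filter. SRSF9, HNRNPA0 and HNRNPUL2 have 1 transcript each, with the counts of the gene. In edgeR they were called as genes but not as transcripts (adjusted p = 0.0842, 0.153 and 0.134). By DESeq2 the NR transcripts of SRSF3 (log2 0.62 ± 0.20, adjusted p = 0.0195) and SRSF6 (log2 0.36 ± 0.13, adjusted p = 0.0453) were higher in PZT-2. With edgeR the same transcripts had adjusted p-values of 0.176 and 0.18. Their counts are those of the NR sums of SRSF3 and SRSF6 above. Whether edgeR called them thus depended on the features they were fitted and adjusted with.

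Pairs of coding transcripts that differ by a single stretch of residues were compared in 8 genes, picked by hand after the values were seen. The deposited lengths of each pair differ by 3 bases per residue. Other genes here, such as HNRNPA1, HNRNPDL, HNRNPH3 and HNRNPR, also hold pairs with such lengths and were not compared. HNRNPC makes the C1 and C2 proteins of 293 and 306 residues, and the C2 share was 41.7% and 42.9% in PANC-1 and 38.9% and 38.2% in PZT-2. HNRNPD, also known as AUF1, makes forms of 355 and 306 residues, and the long form took 59.4% and 59.3% of the pair in PANC-1 and 64.6% in both PZT-2 libraries. In HNRNPU the form of 825 residues took 39.4% and 40.4% in PANC-1 and 43.7% and 42.2% in PZT-2. The lines did not overlap in these 3 of 8 genes. This is near the background, since the share of a gene's 2 most abundant NM transcripts did not overlap in 38.7% of 6222 genes.

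HNRNPA2B1 makes the A2 protein of 341 residues and the B1 protein of 353 residues, and the B1 share was 22.0% ± 2.93 (SD, n = 2) in PANC-1 and 20.8% ± 1.99 in PZT-2, with overlap. PTBP1 is made with or without a stretch of 26 residues that strengthens its activity as a repressor, and the form of 557 residues took 79.3% and 83.7% of the pair in PANC-1 and 79.3% and 81.1% in PZT-2, while the gene sum fell. HNRNPAB, HNRNPM and SRSF7 overlapped as well. These shares are descriptions with no test of their own.

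**Figure D5:**
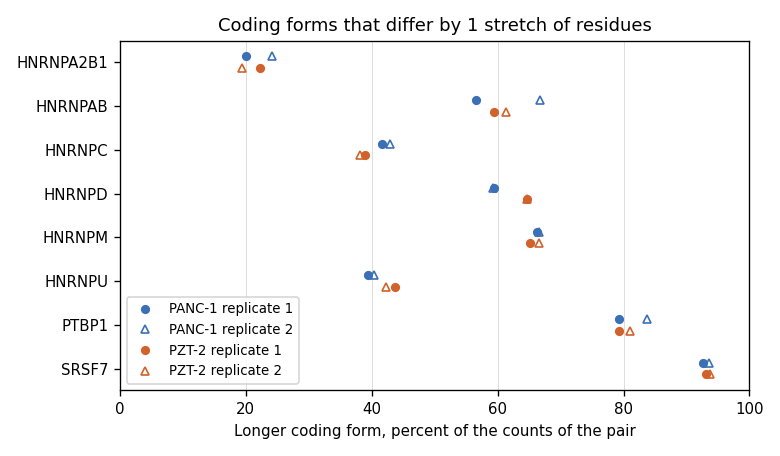
Share of the longer coding form in percent of the counts of a pair of coding forms, in each library for 8 genes picked by hand, with symbols as for the levels. The lines separate in HNRNPC, HNRNPD and HNRNPU, 3 of 8 against 38.7% of all genes with a pair of NM transcripts, and overlap in the other 5 genes.

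In SRSF1 a coding transcript for 201 instead of 248 residues (NM_001078166) took a share of 6.13% and 9.93% in PANC-1 and 14.7% and 15.2% in PZT-2. Its fitted value did not pass in edgeR (log2 0.90 ± 0.34, adjusted p = 0.303) and passed in DESeq2 (log2 0.90 ± 0.32, adjusted p = 0.0399). In SRSF10 the transcript for 262 residues (NM_054016) took 48.3% and 43.3% in PANC-1 and 32.3% and 33.6% in PZT-2 (edgeR log2 -0.58 ± 0.09, adjusted p = 0.106, and DESeq2 -0.58 ± 0.14, adjusted p = 0.000899). The SRSF10 transcript for 261 residues is 7789 bases long, against 7792 bases for that of 262 residues. Its share went the other way, with 10.3% and 20% in PANC-1 and 24.9% and 20.6% in PZT-2. How reads are split between forms this alike in length makes both shares uncertain. Thus the gene sums of SRSF1 and SRSF10 overlapped between the lines while the estimated shares of these chosen transcripts did not. How often this holds over all transcripts was not worked out.

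The partners of these families were described by 6 lists of genes. Among SR protein kinases and importers, which phosphorylate SR proteins and carry them into the nucleus, 0 of 12 genes were called (median log2 -0.01, against 0.00 over all genes). Of 19 SR-related proteins 0 rose and 3 fell (median -0.07). These were SREK1, a relative of the SR proteins, with 461 and 486 normalized counts in PANC-1 and 300 and 261 in PZT-2 (log2 -0.76 ± 0.10, adjusted p = 0.00317), BCLAF1 (-0.41 ± 0.07, adjusted p = 0.00645) and SRRM2 (-0.20 ± 0.05, adjusted p = 0.035), a large scaffold of nuclear speckles.

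A list of hnRNP proteins under other symbols also holds further RNA-binding proteins, such as TIA1. Of its 18 tested genes 3 rose and 7 fell (median -0.08). PCBP4, a poly(C)-binding protein, rose most from 934 and 888 normalized counts in PANC-1 to 1571 and 1617 in PZT-2 (log2 0.81 ± 0.06, adjusted p = 0.00053). CIRBP, an RNA-binding protein induced by cold, fell (log2 -0.68 ± 0.11, adjusted p = 0.00632), as did TIA1 (-0.63 ± 0.13, adjusted p = 0.0143), which favours weak splice sites and forms stress granules, and RBMX (-0.45 ± 0.06, adjusted p = 0.0025), the hnRNP G gene.

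Of 45 genes of the core spliceosome 5 rose and 12 fell (median -0.07). U2AF2, the large subunit that binds the polypyrimidine tract, fell from 9263 and 9017 normalized counts in PANC-1 to 6168 and 6089 in PZT-2 (log2 -0.58 ± 0.05, adjusted p = 0.000612). SF3B6, which contacts the branch point in the U2 particle, rose from 978 and 1037 to 1514 and 1670 (log2 0.66 ± 0.07, adjusted p = 0.00176), and SLU7, a factor of the second step of splicing, rose as well (0.49 ± 0.11, adjusted p = 0.016). SNRPA, the A protein of the U1 particle, fell (-0.35 ± 0.06, adjusted p = 0.00932).

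Of 15 genes of nonsense-mediated decay and the exon junction complex 0 rose and 2 fell (median -0.02), against 14.7% and 13.7% of all genes. The other genes of this list, UPF1 among them (log2 -0.01 ± 0.06), were not called. SMG1, the kinase that phosphorylates UPF1, had 3219 and 3119 normalized counts in PANC-1 and 2509 and 2015 in PZT-2 (log2 -0.49 ± 0.10, adjusted p = 0.0153), with the limit that it has near-identical pseudogene copies. UPF3B, which joins the decay factors to the exon junction complex, had 335 and 322 in PANC-1 and 255 and 234 in PZT-2 (log2 -0.43 ± 0.10, adjusted p = 0.0226). The NR shares of SRSF3 and SRSF6 given above did not pass limma's test of the ratio (adjusted p = 0.728 and 0.607). The part of SMG1 and UPF3B in these shares was not tested.

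Of 27 tissue-restricted splicing regulators 15 had values, of which 2 rose and 3 fell (median 0.10). MBNL2 had 639 and 579 normalized counts in PANC-1 and 340 and 285 in PZT-2 (log2 -0.96 ± 0.11, adjusted p = 0.00194), and ESRP2, an epithelial regulator, fell by 0.49 on the log2 scale (SE 0.09, adjusted p = 0.00954). NOVA2, a neuronal regulator, was higher on low counts, with 1.13 and 1.81 in PANC-1 and 20.1 and 11.9 in PZT-2 (log2 3.31 ± 0.66, adjusted p = 0.0121). QKI, a regulator of alternative exons and circular RNA, fell (-0.35 ± 0.07, adjusted p = 0.0105). In either direction, 0 of 12 kinases and importers and 3 of 19 SR-related genes were called. In the list of hnRNP and further RNA-binding proteins it was 10 of 18. For the core spliceosome it was 17 of 45, for nonsense-mediated decay 2 of 15 and for tissue-restricted regulators 5 of 15. Over all genes tested 28.4% were called, 14.7% higher and 13.7% lower in PZT-2.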

How the data were processed

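RNA-seq libraries of PANC-1 (2) and PZT-2 (2) had been made with a stranded mRNA kit and read from both ends on a NextSeq 500. Per the labels, the authors used Trim Galore 0.4.1, kallisto 0.43.0 on RefSeq transcripts and sleuth 0.29.0, and hg19 is listed in the submitters' processing notes. The deposited estimated counts carry 1 factor per library, between 0.93482 and 1.16002, which was worked out from genes with 1 transcript and undone. Between 41.1% and 42.2% of the values between 0.5 and 30 were then whole to within 0.01, against 0.91% to 2.39% as deposited. The signal column is TPM per transcript and was used as deposited. Its totals were 1000097 and 975806 in PANC-1 and 940619 and 943632 in PZT-2. Whether it also carries a factor per library was not worked out, and none was undone. TPM of different libraries may thus differ in scale. A deposited table of sleuth results was used for gene symbols only. Its fold changes, p-values and q-values were not used.

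Counts were summed per gene and rounded. Of 31077 transcripts, 27049 had a symbol in the table, 3925 were named by looking up the accession in RefSeq genes of GRCh38.p14, which also gave positions, and 103 (0.0466% of counts) stayed unnamed. Genes that reached 5 counts in 2 or more libraries were tested with edgeR 4.0.16 in R 4.3.3 (TMM factors, quasi-likelihood test, Benjamini-Hochberg adjustment over all genes, threshold 0.05). The same test was run on transcripts and on NM and NR sums. Ratios of NR to NM counts (pseudocount 0.5) were tested with limma 3.58.1. Normalized counts were scaled to the size of the mean library, and errors are SE of the fit or SD of 2 libraries. The smallest p that exact permutation allows for 2 against 2 libraries is 0.333, so no permutation test was made. Scripts were tested on simulated counts with changes larger than those of the called SRSF, HNRNP and PTBP genes and of their NR ratios. How well changes of the size reported here are found was not tested.

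Alternatives were RLE factors, DESeq2 1.42.0, other filters, limma-trend on log2(TPM + 1) and log2(TPM + 0.1), deposited counts, length-scaled counts, diffSpliceDGE, a replicate block and each library left out. Added after the values were seen were table symbols only, NM transcripts only, a robust prior, and the NM and NR sums with their alternatives. The genes, lists and tests were chosen with earlier results of these data known. Values per library are given for called genes, the extremes of each family and genes with NR transcripts, and for at most 4 called genes of a list, those with the largest fold change. Relatives named beside a called gene, the genes named as not called, the coding pairs and the single transcripts of SRSF1 and SRSF10 were chosen after their values were seen. Stop codons of NR transcripts were read from GENCODE 29 transcripts matched to RefSeq by its metadata, which is not the index of the authors.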

Additional observations from a re-analysis of the deposited data

How the results depend on the processing

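All 13 called genes kept their direction under 16 alternatives. HNRNPH2, HNRNPUL1, PTBP1, PTBP3, SRSF8 and SRSF9 also stayed below the threshold in all 16. Outside the libraries left out, 152 of 156 values stayed on their side of the threshold. HNRNPLL did not with DESeq2 and both TPM fits, and HNRNPA0 did not with the replicate block. Leaving out 1 library gave 2 to 6 genes called higher and 5 to 9 called lower, against 6 and 7 in all libraries. Without either PZT-2 replicate 1 or PZT-2 replicate 2 only 2 were called higher, and the share of all genes called was 16.6% and 13.7% in these fits. The SRSF3 NR sum ranged from 0.46 to 0.79 (log2) with 1 library left out and lost its call in 3 of these 4 fits, and the SRSF6 NR sum from 0.29 to 0.44, also losing it in 3. DESeq2 called 24 single transcripts and 2 were called where every library had to reach 10 counts (against 5.86% of all transcripts then tested), against 0. HNRNPA1P33, not called in all libraries by edgeR, was called lower by both TPM fits (log2 -1.09 and -0.81). The median NR share was 10.8% of TPM against 9.66% of counts. Values that did not pass the test changed sign as follows. The log2 fold change of PTBP2 ran from -0.90 to 0.74 with 1 library left out. The log2 NR to NM ratio ran from -0.52 to 0.68 in HNRNPA3 (and was -0.06 on TPM), from -0.14 to 0.17 in HNRNPDL and from -0.01 to 0.73 in SRSF2. The cause of these changes was not tested.

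Replicate numbers are shared between the lines, but over all genes libraries with equal numbers did not deviate together (correlation -0.0207). This value cannot exclude a shared batch that affects only some genes. With the replicate block 6 genes were called higher and 6 lower, 0 transcripts and 0 ratios. Having 2 libraries per line limits what can be detected, and replicates differed by more than counting error (chi-square per gene 6.27 in PANC-1 and 3.53 in PZT-2).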
